A study of Mus musculus with 2 samples.

Results

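Homologous recombination and Fanconi anaemia genes were examined in RNA sequencing of CH12F3 cells labelled Lig4-/- and of parental CH12F3 cells. The 39 genes were taken by name from a list of known function, which was drawn up with earlier results of these data known although its rule applies no measured value. All 39 were found among the 51638 genes of the deposited table. CH12F3 is a mouse B cell lymphoma line used to study antibody class switching. Lig4 encodes DNA ligase IV, which seals breaks in nonhomologous end joining. Cells labelled Lig4-/- are CH12F3 cells that carry, by their label, a loss of Lig4 on both alleles, and CH12F3 cells carry no alteration named by the labels. Neither line is given a treatment in its labels. Both were grown in RPMI medium with 10% serum. Whether the mutant line is a single clone is not stated by its labels. Each line was represented by 1 library, so no spread could be estimated, no difference has a replicate check, and every difference describes these 2 libraries.

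Homologous recombination copies an intact sister chromatid to repair a broken one. Brca1 with Bard1 directs broken ends towards resection, Palb2 joins Brca1 to Brca2, and Brca2 loads the recombinase onto single-stranded DNA. Helicases and nucleases then resolve the joined molecules. The Fanconi anaemia pathway acts at crosslinked DNA: a core complex with the E2 enzyme Ube2t attaches ubiquitin to Fancd2 and Fanci, which opens the way to nucleases and to recombination. Dividing B cells that switch class carry many programmed breaks, most of which are joined by end joining.

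The labels could not be checked through the targeted gene. Lig4 was at 0.64 FPKM in the library labelled Lig4-/- and at 0.13 FPKM in the CH12F3 library, so the mutant's library did not have less of it, and the directions below rest on the label. Both values are under 1 FPKM, and a value per gene does not show which part of a gene is lost. FPKM are fragments scaled to transcript length and to the size of the library. They summed to 962435 in the library labelled Lig4-/- and to 1020856 in the CH12F3 library. Read depth is unknown, and so no value carries a counting interval. All 8 B cell markers were expressed, with summed FPKM of 10296 in the library labelled Lig4-/- and 6583 in the CH12F3 library. Most of both sums was Ighm, at 9325 and 5142 FPKM in those libraries. The other markers did not share a direction. Cd79a was at 331 and 135 FPKM, and Cd79b at 481 and 1187 FPKM, in the same order of libraries. Of the 4 T cell markers, 1 was expressed, with sums of 1.96 and 1.57 FPKM in the library labelled Lig4-/- and the CH12F3 library, and Cd3e was listed at 0 in the library labelled Lig4-/-. The 4 myeloid markers summed to 9.77 and 5.25 FPKM and the 4 fibroblast markers to 0.14 and 0.31 FPKM in the same order of libraries, with Pdgfra and Col3a1 listed at 0 in both. Of the erythroid markers reported, Hbb-bs was listed at 0 in both libraries, while Hba-a1 was at 23.6 FPKM in the library labelled Lig4-/- and 30.5 FPKM in the CH12F3 library. In such bulk samples, fewer cells of a type and less RNA per cell cannot be told apart.

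More of the recombination and Fanconi genes were higher than lower in the library labelled Lig4-/-. Of the 39, 37 were expressed, meaning a mean over both libraries of at least 1 FPKM. Fancf and Fan1 were not. Among the 37, 14 were 2-fold or more above their CH12F3 level and none was 2-fold or more below it, where a fold is taken on FPKM + 1. Thus 37.8% of the expressed members were at least 2-fold higher, against 21.0% of all 11422 expressed genes, and none was at least 2-fold lower, against 4.09%. The median log2 ratio, of FPKM + 1 in the library labelled Lig4-/- over FPKM + 1 in the CH12F3 library, was 0.46 over the members and 0.17 over all expressed genes. In all, 28 members lay above 0 and 9 below, from Gen1 at 2.38 to Rad51d at -0.76. Of all 11422 expressed genes, 6656 lay above 0 and 4756 below, so all genes leaned upwards too. Of the 14, Dna2, Bard1, Fancm, Brca1, Rad54b and Brip1 lay near the 2-fold threshold, with log2 ratios from 1.03 to 1.10. Just below the threshold were Fancb at 0.97 and Ube2t at 0.94. Because 1 FPKM is added to each value, differences of members near that level come out too small.

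The members' share past 2-fold depended on how transcript base composition was treated. Across all expressed genes, transcripts of low GC content had the higher log2 ratios. With a smooth curve on the GC content of the longest annotated transcript subtracted, 2 of 37 members, Gen1 and Blm, were at least 2-fold higher, which is 5.41%, against 5.75% of the 11404 expressed genes with a GC content. None was at least 2-fold lower, against 5.98%. The adjusted median was 0.06 over the members and -0.01 over all expressed genes. After the adjustment 21 members lay above 0 and 16 below, against 5609 and 5795 of all expressed genes with a GC content. The adjusted share lay near that of all genes. Unadjusted shares within classes of GC content are described below. Under 45% GC, 66.7% of members and 56.4% of genes were at least 2-fold higher, with medians of 1.09 and 1.11. From 45% to 50% the shares were 46.2% and 20.3%. At 50% or more no member was at least 2-fold higher, against 3.33% of genes. The adjusted log2 ratio is given in brackets after the unadjusted one for most genes that follow.

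**Figure D1:**
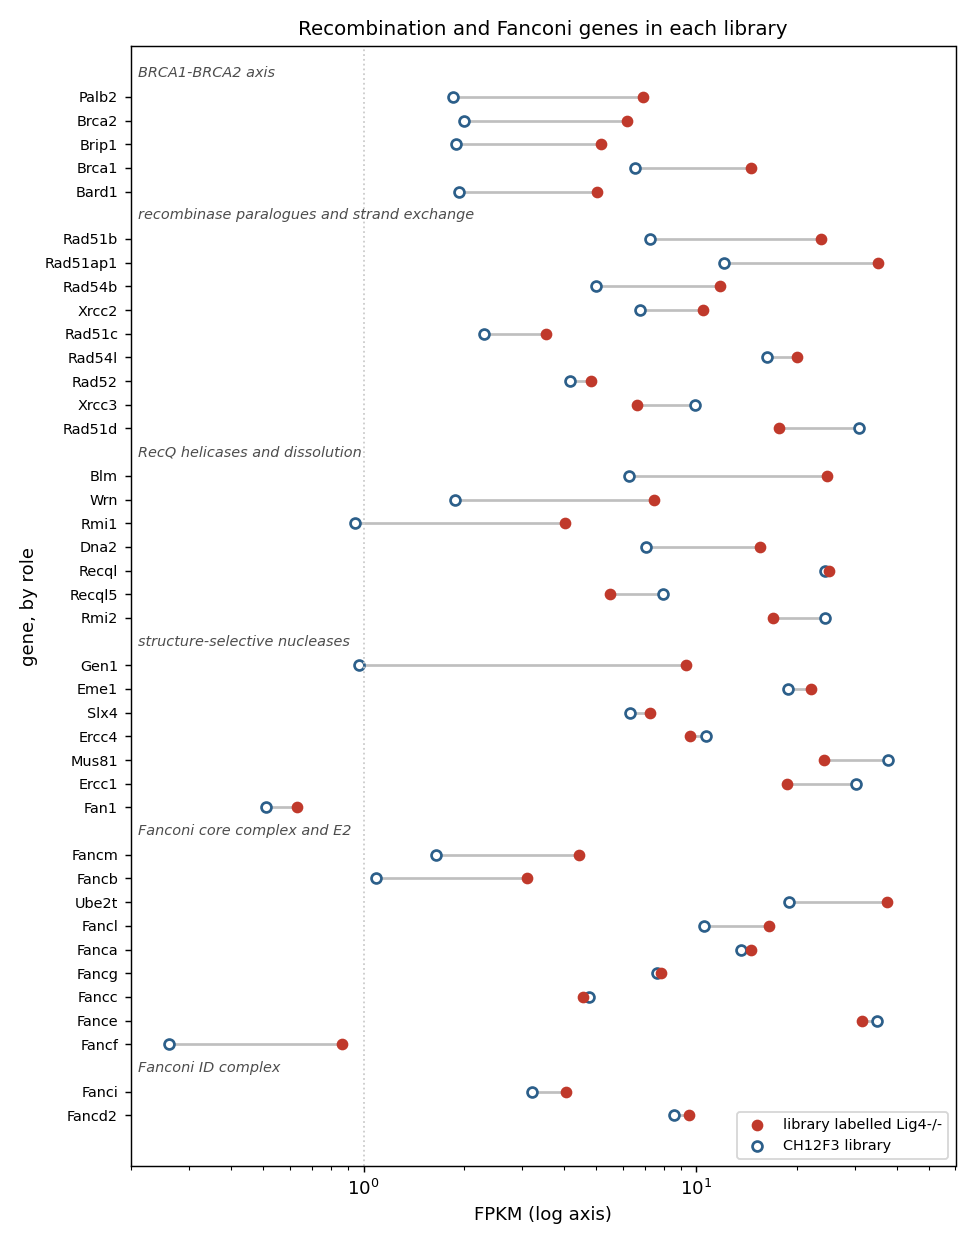
Level of each of the 39 genes in each library, in FPKM on a log axis, grouped by role and ordered within a role by log2 ratio; filled points stand for the library labelled Lig4-/-, open points for the CH12F3 library, and the dotted line marks 1 FPKM. The widest gap is that of Gen1, at 9.29 FPKM in the library labelled Lig4-/- and 0.97 FPKM in the CH12F3 library, while Recql, Fancg and Fancc nearly coincide.

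As a group these genes were expressed at low to moderate levels. The median over the 37 expressed members was 9.54 FPKM in the library labelled Lig4-/- and 7.06 FPKM in the CH12F3 library, and over all expressed genes it was 14.7 and 11.2 FPKM in those libraries. All 39 together held 0.0516% of the FPKM sum in the library labelled Lig4-/- and 0.0383% in the CH12F3 library. The most abundant in the library labelled Lig4-/- were Ube2t at 37.4, Rad51ap1 at 35.1 and Fance at 31.4 FPKM. In the CH12F3 library they were Mus81 at 37.6, Fance at 34.9 and Rad51d at 30.7 FPKM. The order of levels therefore differed at the top, with Fance near the top in both libraries. Spearman's rho between the libraries was 0.78 over the 37 members and 0.89 over all expressed genes, as a description, since genes of 1 library share its preparation.

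The genes at the ends of the range are shown with their promoters. Gen1 (ENSMUSG00000051235, chromosome 12, 11238920 to 11265801, minus strand) and Blm (ENSMUSG00000030528, chromosome 7, 80454733 to 80535119, minus strand) had the highest log2 ratios, and Rad51d (ENSMUSG00000018841, chromosome 11, 82876434 to 82890614, minus strand) and Ercc1 (ENSMUSG00000003549, chromosome 7, 19344778 to 19356524, plus strand) the lowest, with gene positions from GENCODE M21 on GRCm38. The windows are RefSeq start sites on GRCm38.p6, from 250 bases before to 50 bases from the start site onwards, at chr12:11265758-11266057 on the minus strand for Gen1, chr7:80534949-80535248 on the minus strand for Blm and chr7:19344821-19345120 on the plus strand for Ercc1. Capitals mark the motifs searched. Gen1 has a cell cycle homology region, CHR, 24 bases past its start site, Blm has a pair of CCAAT boxes, and Ercc1 has none of the motifs. The start site of the Ercc1 window lies 293 bases from the 5′ end of its longest protein-coding transcript, so the window lies inside the annotated gene.
Gen1: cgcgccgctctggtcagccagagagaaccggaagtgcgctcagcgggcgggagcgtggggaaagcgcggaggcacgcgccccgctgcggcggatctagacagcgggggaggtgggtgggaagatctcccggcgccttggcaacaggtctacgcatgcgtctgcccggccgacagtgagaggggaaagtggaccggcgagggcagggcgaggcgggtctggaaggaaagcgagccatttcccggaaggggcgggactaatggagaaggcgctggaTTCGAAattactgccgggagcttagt
Blm: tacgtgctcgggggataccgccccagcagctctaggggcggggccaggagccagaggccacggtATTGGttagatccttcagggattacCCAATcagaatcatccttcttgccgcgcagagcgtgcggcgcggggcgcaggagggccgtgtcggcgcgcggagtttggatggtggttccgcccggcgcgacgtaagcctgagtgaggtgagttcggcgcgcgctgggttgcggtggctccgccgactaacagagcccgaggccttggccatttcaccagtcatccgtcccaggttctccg
Ercc1: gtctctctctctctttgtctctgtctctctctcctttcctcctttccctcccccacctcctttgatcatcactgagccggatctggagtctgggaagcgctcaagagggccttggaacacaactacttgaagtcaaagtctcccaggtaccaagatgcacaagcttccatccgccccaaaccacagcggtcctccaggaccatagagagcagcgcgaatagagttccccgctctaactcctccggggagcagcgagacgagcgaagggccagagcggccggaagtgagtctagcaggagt

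CCAAT boxes and E2F sites stood in a larger share of the members' windows than of all expressed genes' windows. Motifs were searched on both strands as TTTCCCGC, TTTGGCGC, TTTGCCGC or TTTCGCGC for E2F, TTTGAA or TTCGAA for CHR, and CCAAT. No motif contains another, and TTCGAA reads the same on either strand. Of the 39 members, 33 had a window. E2F letters stood in 5 of these (15.2%), in Bard1, Brca2, Rad51c, Rmi1 and Fancg, against 4.43% of 8583 expressed genes and 2.65% of 20176 genes with a window. CCAAT stood in 20 (60.6%), against 39.1% of expressed genes and 38.0% of all. CHR letters stood in 4 (12.1%), in Bard1, Rad51b, Eme1 and Gen1, against 13.8% of expressed genes and 18.1% of all. The start site used lay 20153 bases from the 5′ end of the longest protein-coding transcript for Recql, 2469 for Rmi1 and 949 for Fancl, so the CCAAT letters counted for Recql and Rmi1 and the E2F letters counted for Rmi1 may not be at the start used in these cells. Expressed members with E2F letters had a median log2 ratio of 1.04 (n = 5 genes, GC-adjusted 0.12) and those without a median of 0.28 (n = 26 genes, GC-adjusted 0.04), while over all expressed genes the medians were 0.27 with and 0.17 without. With CHR letters the members' median was 1.31 (n = 4 genes, GC-adjusted 0.69) and without them 0.28 (n = 27 genes, GC-adjusted 0.04). Over all expressed genes the medians were 0.25 with CHR letters and 0.16 without. With CCAAT the members' median was 0.94 (n = 19 genes, GC-adjusted 0.060) and without it 0.37 (n = 12 genes, GC-adjusted -0.031). Over all expressed genes they were 0.19 with CCAAT and 0.16 without. A match is a description of these letters and not a site shown to be bound.

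All 5 genes of the Brca1 to Brca2 axis stood at 2-fold or more above their CH12F3 level, against 21.0% of all expressed genes. Their log2 ratios ran from 1.04 to 1.46. Bard1, Brca1 and Brip1 were past the threshold by only 0.036, 0.052 and 0.097. With upper quartiles made equal, Bard1 (0.993) and Brca1 (0.999) fell below it. With the median of expressed genes set to 0, Bard1 (0.87), Brca1 (0.88) and Brip1 (0.93) did. Palb2, the bridge between Brca1 and Brca2, was at 6.89 FPKM in the library labelled Lig4-/- and 1.86 FPKM in the CH12F3 library, a log2 ratio of 1.46. It kept the highest adjusted value of the 5, at 0.97. Brca2, the loader of the recombinase (ENSMUSG00000041147, chromosome 5, 150522630 to 150570329), was at 6.18 and 2.0 FPKM in the library labelled Lig4-/- and the CH12F3 library, with log2 ratios of 1.26 unadjusted and 0.19 adjusted. Brca1, the ubiquitin ligase that favours end resection (ENSMUSG00000017146, chromosome 11, 101488764 to 101551955), was the most abundant of the 5 in both libraries, at 14.6 FPKM in the library labelled Lig4-/- and 6.53 FPKM in the CH12F3 library (log2 ratio 1.05, adjusted 0.47). Its partner Bard1 was at 5.01 FPKM in the library labelled Lig4-/- and 1.93 FPKM in the CH12F3 library, with a log2 ratio of 1.04 and an adjusted one of 0.41. Brip1, a helicase that binds Brca1, was at 5.18 FPKM in the library labelled Lig4-/- and 1.89 FPKM in the CH12F3 library. Its log2 ratio of 1.10 became -0.10 after the GC adjustment. The longest transcripts of these genes had GC contents between 41.3% and 47.0%, and none of the 5 was 2-fold apart after the adjustment.

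The paralogues of the recombinase and the proteins that assist strand exchange lay on both sides of 0. Rad51b, which forms a complex with Rad51c, Rad51d and Xrcc2, was at 23.7 FPKM in the library labelled Lig4-/- and 7.24 FPKM in the CH12F3 library (log2 ratio 1.59, adjusted 0.97). Rad51ap1, which stimulates strand pairing, was at 35.1 FPKM in the library labelled Lig4-/- and 12.1 FPKM in the CH12F3 library (1.46, adjusted 0.82). Rad54b, a DNA translocase, was at 11.8 FPKM in the library labelled Lig4-/- and 4.98 FPKM in the CH12F3 library (1.09, adjusted 0.22), and 35.8% of its exon bases overlap Fsbp on the same strand, which was at 0.60 and 0.07 FPKM in those libraries, so reads could have been assigned to either gene. These were the 3 of 9 genes at least 2-fold higher (33.3%, against 21.0% of all expressed genes). The related translocase Rad54l was at 20.1 FPKM in the library labelled Lig4-/- and 16.3 FPKM in the CH12F3 library (0.28, adjusted -0.19). It shares 15.4% of its exon bases with Lrrc41 on the opposite strand, at 27.3 and 25.2 FPKM in those libraries.

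Members of the same paralogue complexes differed in direction. Rad51d was at 17.7 FPKM in the library labelled Lig4-/- and 30.7 FPKM in the CH12F3 library, the lowest log2 ratio of all members at -0.76 and the lowest adjusted one at -0.84. Xrcc3, which pairs with Rad51c, was at 6.63 FPKM in the library labelled Lig4-/- and 9.90 FPKM in the CH12F3 library (-0.51, adjusted -0.19). Xrcc2 was at 10.5 FPKM in the library labelled Lig4-/- and 6.78 FPKM in the CH12F3 library (0.56, adjusted 0.11). Rad51c was at 3.54 FPKM in the library labelled Lig4-/- and 2.30 FPKM in the CH12F3 library (0.46, adjusted -0.35). Rad52, which anneals single strands, was at 4.82 FPKM in the library labelled Lig4-/- and 4.16 FPKM in the CH12F3 library (0.17, adjusted -0.44). The longest transcripts of Rad52 and Rad54l do not encode protein, and with the GC content of the longest protein-coding transcript their adjusted log2 ratios were 0.083 and 0.0038. None of these 5 genes was 2-fold apart. After the adjustment on the longest annotated transcript, 4 of the 9 genes of this role lay above 0 and 5 below. Rad52 and Rad54l were among those below, and moved above 0 with the protein-coding transcript.

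RecQ helicases and the partners that dissolve joined molecules held 4 of 7 genes that were 2-fold or more above their CH12F3 level. That is 57.1%, against 21.0% of all expressed genes. After the GC adjustment it was 1 of 7 (14.3%, against 5.75%). Differences between the roles were not tested. Blm, the helicase mutated in Bloom syndrome in humans, was at 24.7 FPKM in the library labelled Lig4-/- and 6.28 FPKM in the CH12F3 library, a 3.94-fold ratio of the deposited values. Its log2 ratio was 1.82, and 1.01 after the GC adjustment. Wrn, the helicase and exonuclease mutated in Werner syndrome in humans, was at 7.45 FPKM in the library labelled Lig4-/- and 1.88 FPKM in the CH12F3 library (1.55, adjusted 0.44). Dna2, a nuclease and helicase of long-range resection, was at 15.5 FPKM in the library labelled Lig4-/- and 7.06 FPKM in the CH12F3 library (1.03, adjusted 0.80). The other RecQ helicases among the members did not share the high ratio of Blm and Wrn. Recql was at 25.1 and 24.3 FPKM in the library labelled Lig4-/- and the CH12F3 library (0.04, adjusted -0.47), and Recql5 at 5.50 and 7.96 FPKM (-0.46, adjusted -0.30). Recql shares 37.7% of its exon bases with Pyroxd1 on the opposite strand, which was at 2.62 FPKM in the library labelled Lig4-/- and 1.67 FPKM in the CH12F3 library.

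Rmi1 and Rmi2, which complete the Blm complex, lay on opposite sides of 0. Rmi1 was at 4.03 FPKM in the library labelled Lig4-/- and 0.94 FPKM in the CH12F3 library (log2 ratio 1.37), and its transcript had the lowest GC content of the expressed members, at 39.98%. After the GC adjustment its log2 ratio was 0.06. Rmi1 shares 5.02% of its exon bases with Hnrnpk on the opposite strand, which was far more abundant, at 385 FPKM in the library labelled Lig4-/- and 199 FPKM in the CH12F3 library. As the strand setting is unknown, the part of Hnrnpk reads in the value of Rmi1 was not tested. Rmi2 was at 16.98 FPKM in the library labelled Lig4-/- and 24.3 FPKM in the CH12F3 library (-0.50, adjusted -0.61).

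Among nucleases that cut branched DNA, 1 of 6 expressed genes, Gen1, was at least 2-fold higher (16.7%, against 21.0% of all expressed genes). The other expressed ones lay within 2-fold. Gen1, which cuts Holliday junctions, was at 9.29 FPKM in the library labelled Lig4-/- and 0.97 FPKM in the CH12F3 library, a 9.58-fold ratio of the deposited values from a low CH12F3 level. Its log2 ratio of 2.38 was the highest of all members, as was its adjusted one of 1.11. Mus81, which cuts forks and flaps, was at 24.1 FPKM in the library labelled Lig4-/- and 37.6 FPKM in the CH12F3 library (-0.62, adjusted -0.36), whereas its partner Eme1 was at 22.2 FPKM in the library labelled Lig4-/- and 18.8 FPKM in the CH12F3 library (0.22, adjusted 0.38). Ercc1 was at 18.8 FPKM in the library labelled Lig4-/- and 30.05 FPKM in the CH12F3 library (-0.65, adjusted -0.31). Its partner Ercc4, with which it cuts beside crosslinks, was at 9.54 FPKM in the library labelled Lig4-/- and 10.7 FPKM in the CH12F3 library (-0.15, adjusted -0.37). The longest transcript of Ercc4, at 49.3% GC, is not annotated as protein-coding. With the GC content of its longest protein-coding transcript, 53.6%, the adjusted log2 ratio of Ercc4 was -0.0019. Slx4, a scaffold for several of these nucleases, was at 7.24 FPKM in the library labelled Lig4-/- and 6.30 FPKM in the CH12F3 library (0.17, adjusted 0.33). Fan1, a nuclease of crosslink repair, was below the expression threshold, at 0.63 FPKM in the library labelled Lig4-/- and 0.51 FPKM in the CH12F3 library.

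The Fanconi core complex and its E2 enzyme held 1 of 8 expressed genes past 2-fold (12.5%, against 21.0% of all expressed genes upwards). That gene was Fancm, the translocase that recruits the complex to DNA, at 4.44 FPKM in the library labelled Lig4-/- and 1.65 FPKM in the CH12F3 library (log2 ratio 1.04, adjusted 0.29). Fancb, a core subunit, at 3.10 FPKM in the library labelled Lig4-/- and 1.09 FPKM in the CH12F3 library, and Ube2t, at 37.4 FPKM in the library labelled Lig4-/- and 19.0 FPKM in the CH12F3 library, lay just inside the threshold, with log2 ratios of 0.97 and 0.94 and adjusted ones of -0.23 and 0.04. With the GC content of its longest protein-coding transcript, the adjusted log2 ratio of Ube2t was 0.46. Fancl, the ubiquitin ligase of the complex, was at 16.5 FPKM in the library labelled Lig4-/- and 10.5 FPKM in the CH12F3 library, with a log2 ratio of 0.61 that became -0.61 after the adjustment. It shares 13.7% of its exon bases with Vrk2 on the opposite strand, at 10.7 and 5.09 FPKM in those libraries. The remaining core subunits were nearly level. Fanca was at 14.6 and 13.6 FPKM, Fancg at 7.83 and 7.61 FPKM, Fancc at 4.56 and 4.76 FPKM and Fance at 31.4 and 34.9 FPKM in the library labelled Lig4-/- and the CH12F3 library. Their adjusted log2 ratios were 0.30 for Fanca, 0.12 for Fancg, 0.047 for Fancc and 0.28 for Fance. Fancf was below the expression threshold, at 0.86 FPKM in the library labelled Lig4-/- and 0.26 FPKM in the CH12F3 library.

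The substrates of the complex were close to level. Fancd2 was at 9.48 FPKM in the library labelled Lig4-/- and 8.59 FPKM in the CH12F3 library (log2 ratio 0.13, adjusted -0.45). Fanci was at 4.07 FPKM in the library labelled Lig4-/- and 3.20 FPKM in the CH12F3 library (0.27, adjusted -0.18). Fanci shares 16.0% of its exon bases with Polg on the opposite strand, at 23.3 and 27.2 FPKM in those libraries.

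Transcript GC content ordered the members much as it ordered all genes. Between log2 ratio and GC content, Spearman's rho was -0.79 for the 37 members, which share 1 pair of libraries, and -0.64 over 11404 expressed genes. Of the 12 members with a GC content under 45%, 8 were at least 2-fold higher (66.7%), against 56.4% of 2848 expressed genes in that range, and the medians were 1.09 and 1.11. Of the 13 members from 45% to 50%, 6 were at least 2-fold higher (46.2%), against 20.3% of 2976 genes, and the medians were 0.56 and 0.43. These 6 were Brca1, Bard1, Palb2, Rad51b, Rad51ap1 and Dna2, of which Dna2 (1.03), Bard1 (1.04) and Brca1 (1.05) lay close to the threshold. Of the 12 members at 50% or more, none was at least 2-fold higher, against 3.33% of 5580 genes, and the medians were -0.31 and -0.24. The members' median GC content was 46.8% and that of all expressed genes 49.8%. Transcript length went with the log2 ratio less closely, with a rho of 0.37 over the members and 0.26 over all expressed genes.

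**Figure D2:**
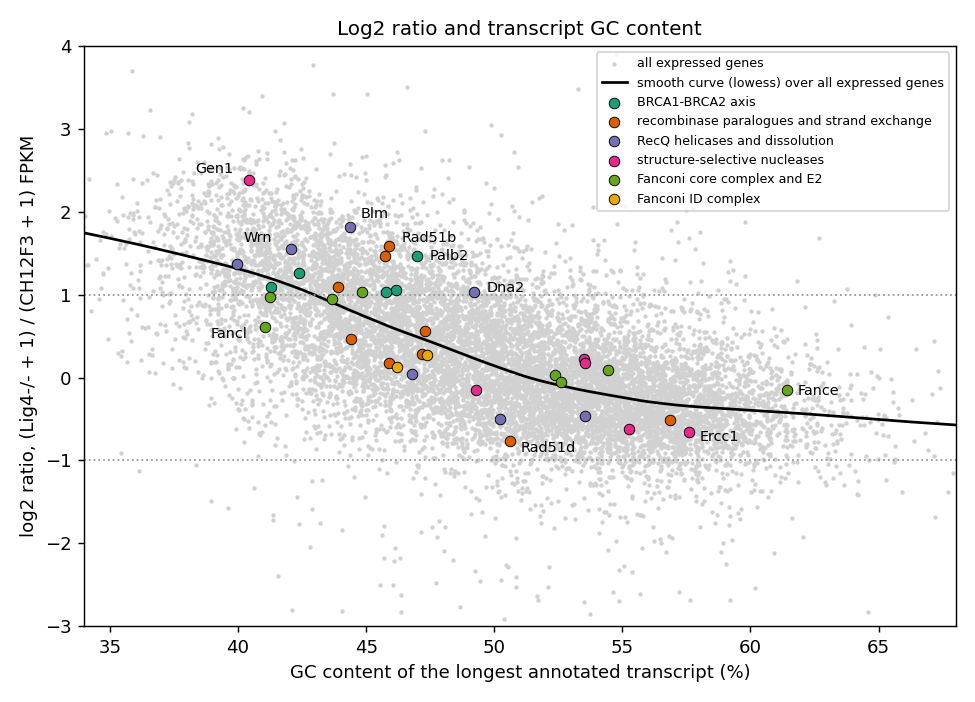
Log2 ratio of FPKM + 1 (library labelled Lig4-/- over CH12F3 library, vertical axis) against the GC content of the longest annotated transcript in percent (horizontal axis); grey points are all expressed genes within the axes, coloured points the 37 expressed members by role, the black line the smooth curve over all expressed genes and dotted lines 2-fold. Gen1, Blm, Rad51b and Palb2 lie furthest above the curve and Rad51d furthest below it.

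**Figure D3:**
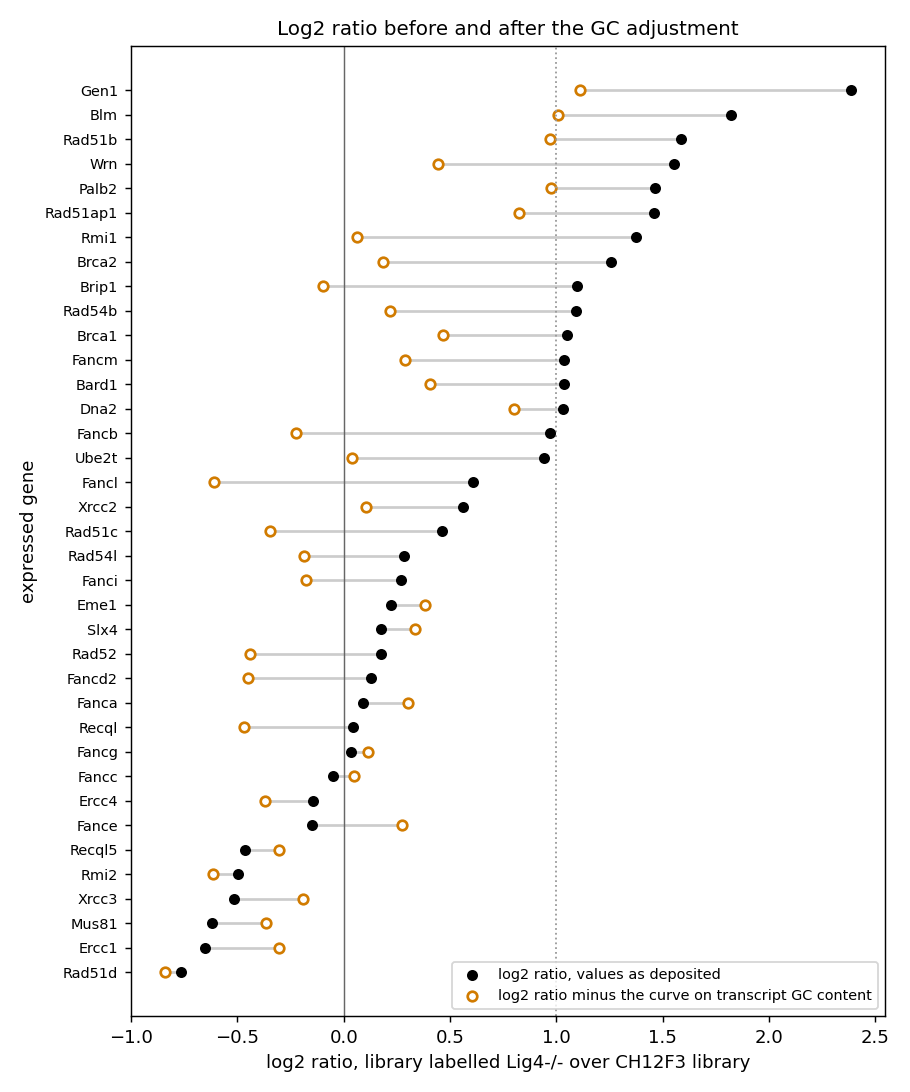
Log2 ratio of each of the 37 expressed members (horizontal axis, library labelled Lig4-/- over CH12F3 library) as deposited in filled points and after subtraction of the curve on GC content in open points, ordered by the deposited value. Of the 14 filled points at or beyond a log2 ratio of 1, the open points of Gen1 (1.11) and Blm (1.01) are also beyond it.

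Partner transcripts were compared by the ratio of their FPKM, which are per length, for 11 pairs chosen after the values were seen. Brca1 was at 2.92 times Bard1 in the library labelled Lig4-/- and at 3.38 times in the CH12F3 library, and Fancd2 at 2.33 and 2.68 times Fanci, so these partners kept similar proportions. Some of the other pairs, not all of which are given here, did not. Mus81 was at 1.09 times Eme1 in the library labelled Lig4-/- and at 1.996 times in the CH12F3 library. Rad51d was at 1.69 times Xrcc2 in the library labelled Lig4-/- and at 4.53 times in the CH12F3 library, and the difference between their log2 ratios was -1.33, or -0.95 after the GC adjustment. Of the 11 pairs, the widest gap as deposited was between Rmi2 and Rmi1, at 4.21 times in the library labelled Lig4-/- and 25.9 times in the CH12F3 library, a difference of -1.87 that was -0.67 after the adjustment. After the adjustment the widest was between Rad51b and Rad51c, at 6.71 times in the library labelled Lig4-/- and 3.15 times in the CH12F3 library, with a difference of 1.13 as deposited and 1.32 adjusted.

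Other genes of recombination and the Fanconi pathway were past 2-fold upwards about as often as all expressed genes. Of 45 listed, 42 were expressed, and 10 were 2-fold or more above the CH12F3 library (23.8%, against 21.0% of all expressed genes). In this list 1, Faap100, was 2-fold or more below it (2.38%, against 4.09%). The difference from the members' share was not tested. Their median log2 ratio was 0.32 (adjusted -0.10). After the adjustment 2 of these genes were past 2-fold upwards (4.76%, against 5.75% of all expressed genes) and 2 downwards (against 5.98%). Resection and single-strand binding genes held 3 of 8 at least 2-fold higher (37.5%). They ran from Nbn, a subunit of the Mre11 complex, at 22.6 FPKM in the library labelled Lig4-/- and 2.96 FPKM in the CH12F3 library (log2 ratio 2.58, adjusted 1.76), and Rbbp8, which starts resection, at 7.06 and 1.32 FPKM (1.80, adjusted 0.69), to the replication protein A genes Rpa2, at 82.7 and 82.8 FPKM, and Rpa1, at 180 and 233 FPKM in those libraries. A further replication protein A gene, Rpa3, named after its value was seen, was among those at least 2-fold higher. It was at 124 and 47.7 FPKM in those libraries (1.36, adjusted -0.38). Among further Fanconi genes, Usp1, which removes ubiquitin from Fancd2, was at 48.5 FPKM in the library labelled Lig4-/- and 8.01 FPKM in the CH12F3 library (2.46, adjusted 1.61), while its cofactor Wdr48, named after its value was seen, was at 14.4 and 10.5 FPKM in those libraries. In the same list Rev1, a translesion polymerase, had a log2 ratio of 1.32 (adjusted 0.81) and the core complex subunit Faap20 one of -0.57 (adjusted -0.20). Faap100, another core subunit, had the lowest at -1.18 (adjusted -0.76), at 2.20 FPKM in the library labelled Lig4-/- and 6.24 FPKM in the CH12F3 library.

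Further lists of the pathway spread around 0. Among 17 other recombination factors, 3 were past 2-fold upwards (17.6%, against 21.0% of all expressed genes) and none downwards. They ran from the helicase Mcm8 (log2 ratio 1.47, adjusted 0.77) and Sfr1 (1.17, adjusted 0.41) to Zswim7 (-0.49, adjusted -0.37) and the helicase Fbh1 (-0.67, adjusted -0.81). In the Brca1-A complex, which restrains resection, Abraxas1 was at 12.9 FPKM in the library labelled Lig4-/- and 4.01 FPKM in the CH12F3 library (1.47, adjusted 0.40), Uimc1 had a log2 ratio of 0.32, and Babam1 (-0.86) and Babam2 (-0.87) were lowest. After the GC adjustment Babam2, at -1.42, and Brcc3, at -1.33 and named after its value was seen, were past 2-fold downwards. That is 2 of the 5 genes of this complex, against 5.98% of all expressed genes. The longest transcript of Babam2 is a retained intron, and with the GC content of its longest protein-coding transcript Babam2 was at -0.71, within 2-fold, and Brcc3 at -1.56. Of 7 meiotic genes, Dmc1, Spo11 and Hormad1 were listed at 0 in both libraries. Mnd1 (1.30) and Psmc3ip (0.59), partners in strand invasion, and Msh4 (-0.11) and Msh5 (-0.74), which stabilise crossovers in meiosis, were the 4 expressed.

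Recombination genes are used mostly in S and G2 phase, and so cell cycle genes were read beside them. Genes of G2 and mitosis held 10 of 22 that were past 2-fold upwards (45.5%, against 21.0% of all expressed genes) and none downwards. After the GC adjustment 2 were past it upwards (9.09%, against 5.75%) and none downwards. Their median log2 ratio was 0.78 (adjusted 0.47). Bub1, a kinase of the spindle checkpoint, was at 37.9 FPKM in the library labelled Lig4-/- and 6.31 FPKM in the CH12F3 library (2.41, adjusted 1.19). Kif11, a spindle motor, had a log2 ratio of 2.16 (adjusted 1.07), while Tpx2 (0.11) and Plk1 (-0.15) were lowest. Genes of S phase held 5 of 24 past 2-fold upwards (20.8%, against 21.0%) and none downwards (against 4.09%) as deposited. After the adjustment 2 S phase genes were past it upwards (8.33%, against 5.75%) and 2 downwards (against 5.98%). Their median was 0.09 (adjusted 0.07). Cyclin E2, Ccne2, was at 24.1 FPKM in the library labelled Lig4-/- and 2.35 FPKM in the CH12F3 library (2.91, adjusted 1.32). Hells, a chromatin helicase, had a log2 ratio of 2.64 (adjusted 1.15), while Mcm5 (-0.84, adjusted -0.79) and Chaf1b (-0.87, adjusted -1.09) were lowest. After the adjustment Rrm1, named after its value was seen, was lowest at -1.43 (unadjusted -0.48). The longest transcripts of Rrm1 and Chaf1b are retained introns. With the GC content of the longest protein-coding transcript Rrm1 was at -1.39 and Chaf1b at -0.72, within 2-fold. The part of cell cycle position in the members' values was not tested.

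**Figure D4:**
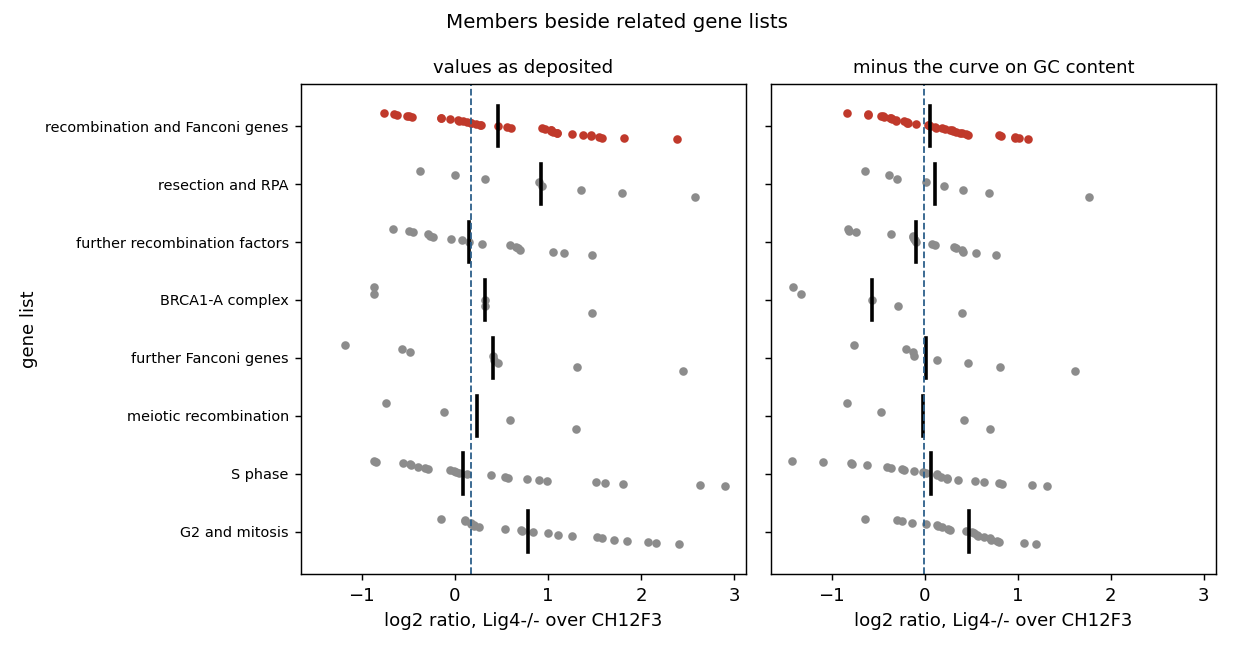
Log2 ratio of each expressed gene (horizontal axis, library labelled Lig4-/- over CH12F3 library) in the 37 members, in red, and in related lists, in grey, as deposited on the left and minus the curve on GC content on the right; black bars are list medians and the dashed line the median of all expressed genes. The members' median is 0.46 on the left and 0.06 on the right.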

How the data were processed

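RNA of 1 library of CH12F3 cells labelled Lig4-/- and 1 library of CH12F3 cells was prepared with a TruSeq kit from 5 µg of total RNA, per the labels' protocols. The authors deposited FPKM values for 53873 features in 1 table, with 1 column per library, matched by name. CASAVA and TopHat were used, per the submitters' processing notes, which state no versions and name the human build GRCh38. Since 51912 features have mouse Ensembl identifiers, the true build is uncertain. Nothing read here states the FPKM program, its annotation, its strand setting or its rule for reads that map repeatedly. Reads of overlapping genes may therefore be counted under either, and 20 members share exon bases with another gene.

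Symbols, positions, transcript lengths and GC contents came from GENCODE M21 (GRCm38) by identifier. Of the identifiers, 51719 had a symbol, 81 with a repeated symbol were dropped in favour of the higher mean, and 51638 genes were left. In the lists of other pathway genes, 3 names were matched through older symbols. Low values of short transcripts with a single exon were searched for steps of whole reads. At the best of many steps 31.6% of values in the library labelled Lig4-/- and 34.6% in the CH12F3 library lay within 0.1 of a whole number, where a fixed step would give 20% by chance, so depth was not recovered. No test was made, as each group has 1 library. Log2 ratios used a pseudocount of 1 FPKM and a minimum mean of 1 FPKM. The GC curve was a lowess fit (fraction 0.3, statsmodels 0.14.6), tested on simulated data. One promoter window per gene was taken, that with the start site nearest the 5′ end of the longest protein-coding transcript, however far away. Every member was named, and of other lists the 2 highest and 2 lowest expressed genes. The promoters shown are those of the 2 highest and 2 lowest expressed members where a window was held. The members and lists were chosen with earlier results of these data known. Of the cell type markers, 1 is not reported here. Alternatives were pseudocounts of 0.1 and 5 FPKM, other expression filters, scalings and thresholds, summed symbols, and adjustments for GC content and length.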

Additional observations from a re-analysis of the deposited data

How the results depend on the processing

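No member was 2-fold or more below its CH12F3 level under any of the 12 alternatives, while the number at least 2-fold higher, 14, varied widely. It was 4 with a pseudocount of 5 FPKM, against 9.65% of all genes, and 7 of 25 with a mean of at least 5 FPKM, against 18.8%. It was 8 with the median of expressed genes set to 0. At a 4-fold threshold it was 1, Gen1, against 3.12% of all genes. It was 2 after the GC adjustment, against 5.75% of all genes, and 3 after an adjustment for GC content and length, against 5.95%. It was 0, against 4.82%, when GC content was taken from the longest protein-coding transcript, an alternative chosen after the data were seen. Under this alternative Gen1 (0.98) and Blm (0.91) were within 2-fold. The median log2 ratio of members, 0.46, was 0.60 with a pseudocount of 0.1 FPKM, 0.23 with 5 FPKM, 0.17 with a mean of at least 5 FPKM, 0.29 with the overall median set to 0, and 0.060, 0.091 and 0.075 under the 3 adjustments. All genes moved too. From 0.753% to 6.82% of them were beyond the threshold downwards across the alternatives. With the overall median set to 0, 16.3% of all genes were at least 2-fold higher. Higher genes made up 83.7% of all genes beyond 2-fold as deposited, 70.5% with that median at 0 and 49.0% after the GC adjustment. The 2-fold difference of Brip1 turned to the other side of 0 under the 3 adjustments (-0.10, -0.14 and -0.22), and that of Rmi1 under the last (-0.082). The scalings to equal totals (16) and upper quartiles (10), a pseudocount of 0.1 FPKM (15), no filter and summed symbols (14 each) left the count within 1.5 times. The shares of all genes were 23.3%, 19.7%, 25.3%, 4.83% and 21.0% in the same order. Why these settings moved the count was not tested. Depth is unknown, so differences among members near 1 FPKM, such as Gen1 and Rmi1 in the CH12F3 library, carry unknown counting error. No paired analysis was possible because each group has 1 library.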
